A study of Gallus gallus with 4 samples.

Results

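The slow and cardiac myosin heavy chains of chicken are described here in breast muscle of broilers with high and low feed efficiency. With earlier results of these data known, they were chosen by symbol, as the features that the platform's probe table names MYH6, MYH7 or MYH7B. That gave 3 features for 3 genes, 1 feature each, out of 45220 features on the array, of which 31722 had a value on every array and 3712 of these had a symbol (3494 genes). All 3 were measured on all 4 arrays. The RefSeq gene table (assembly GRCg7b) now calls the first gene MYH15 and lists MYH6 and VMHC1 among its older names. The same table lists AMHC1 for MYH7, and SM2 and SSMHC for MYH7B. The names of chicken genes thus do not map onto the mammalian alpha and beta cardiac chains of the same number.

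Myosin heavy chains are the motors of the thick filament: the head binds actin and splits ATP, and the rod packs into the filament. Each chain carries an essential and a regulatory light chain at its neck, and muscles use different heavy chain genes according to how fast their fibres contract. In the chicken, MYH15 is known as the ventricular chain, MYH7 as the atrial chain and MYH7B as a slow skeletal chain. The breast muscle of the chicken is a white muscle known to be made up almost wholly of fast fibres, whose own heavy chains belong to another gene cluster.

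The birds were males of a single broiler line, caged and fed one by one, with no treatment. Their feed intake and gain were recorded between weeks 6 and 7 of life, on feed of corn and soy with about 20.5% protein and 3280 kcal per kg. Each of 4 two-colour arrays held breast muscle RNA of low efficiency labelled with Cy3 and of high efficiency labelled with Cy5, read here as 1 bird per channel (4 of each kind). Whether RNA was pooled, the name of the line and how far the birds of the 2 kinds differed in efficiency are not stated in the sources at hand.

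The values are log2 ratios, given below with the median of each array set to 0 and as mean ± SD over 4 arrays. A negative ratio likely means less RNA in the high-efficiency muscle. The numerator is not stated, and this direction rests on the label order alone. With the other numerator every sign below turns. There were 0 dye-swapped arrays, so a dye effect on a single feature and the efficiency of the birds cannot be told apart, and a dye effect alike on all arrays would not widen the SD. In a whole-muscle sample, fewer fibres of a type and less RNA per fibre cannot be told apart either. A ratio holds no level, so whether the tissue expressed its defining genes could not be checked, and the 3 chains cannot be ranked by abundance. Between 39376 and 40278 features were measured per array, and the number of arrays limits the precision. The arrays were only weakly alike over the features measured on all 4. Between pairs of arrays the Pearson correlation ran from 0.146 to 0.187 and the Spearman correlation from 0.238 to 0.302.

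MYH15 and MYH7B were both lower in the high-efficiency muscle, and MYH7 was not. Each chain rests on a single feature. Probe sequences were not at hand, so whether a feature also binds RNA of related myosin chains could not be checked. MYH15 was 4.86-fold lower (95% interval 4.45 to 5.30) and MYH7B was 5.74-fold lower (2.99 to 11.03). MYH7 stood 1.64-fold higher (1.03 to 2.61), which did not pass the test after adjustment over all genes. Among 3494 named genes MYH7B had the 4th lowest and MYH15 the 5th lowest mean ratio, while MYH7 had the 40th highest. Since the chains were chosen with earlier results of these data known, their ranks and p-values are not independent evidence. As background, 24.6% of named genes passed the same test, 6.1% lower and 18.5% higher.

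MYH15, the ventricular chain, had nearly the same ratio on every array. Its centred log2 ratio was -2.34 on array 1, -2.20 on array 2, -2.30 on array 3 and -2.29 on array 4. All 4 arrays were low and lay within 0.139 of each other, from 4.59-fold to 5.05-fold lower. The mean was -2.28 ± 0.06 (n = 4), with limma's adjusted p = 0.000717, and the gene ranked 2nd of 3494 by p. Before centring the feature stood at -2.52, -2.68, -2.88 and -2.80 on arrays 1 to 4, with a wider SD of 0.15, since it followed the array medians of -0.19, -0.49, -0.58 and -0.52.

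The small spread of MYH15 was uncommon at such a ratio. Among 175 other features within 0.5 of its mean log2 ratio the median SD was 1.86, and 0.571% of them had a smaller SD than its 0.06. Of these 175 features, 18 (10.3%) passed the test over all features. Among named genes, 88 had a mean ratio at least 2-fold lower, and 2 of these had an SD at or below that of MYH15: MYH15 itself and phospholamban, PLN. Over all named genes the SD was less unusual, since 11.4% had a smaller one.

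MYH7B, the slow skeletal chain, was low on every array but by different amounts. Its centred log2 ratio was -1.47 on array 1, -2.32 on array 2, -3.35 on array 3 and -2.94 on array 4. Array 1 was the least low at 2.77-fold, and array 3 was the lowest at 10.2-fold, a range of 1.89 on the log2 scale. The mean was -2.52 ± 0.82 (n = 4; 95% interval -3.46 to -1.58), with limma's adjusted p = 0.0160, and the gene ranked 326th by p. The call did not hold over every set of 3 arrays: without array 1 it passed (-2.87, adjusted p = 0.0427), but without array 2 (-2.59, adjusted p = 0.0909), array 3 (-2.24, 0.0825) or array 4 (-2.38, 0.0751) it did not. Its SD was nonetheless below that of most features with a like ratio, for 88 of which the median was 1.88 and of which 13.6% had a smaller SD. Over all named genes the SD of MYH7B was large, since 89.0% had a smaller one.

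MYH7, the atrial chain, went the other way on 3 of 4 arrays. Its centred log2 ratio was -0.06 on array 1, 0.65 on array 2, 1.31 on array 3 and 0.95 on array 4. Array 1 was level with its median, and the other arrays were from 1.57-fold to 2.49-fold higher. The mean was 0.72 ± 0.58 (n = 4; 95% interval 0.04 to 1.39), and limma's adjusted p was 0.115. The unadjusted p was 0.0412, and the interval, which is not adjusted for the number of genes, lay just above 0. Its SD was larger than that of 78.3% of 6041 other features within 0.5 of its mean ratio, whose median SD was 0.15. As deposited, without centring, the ratio was -0.24, 0.16, 0.74 and 0.44 on arrays 1 to 4 (mean 0.27), so part of its distance from 0 came from the array medians.

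**Figure D1:**
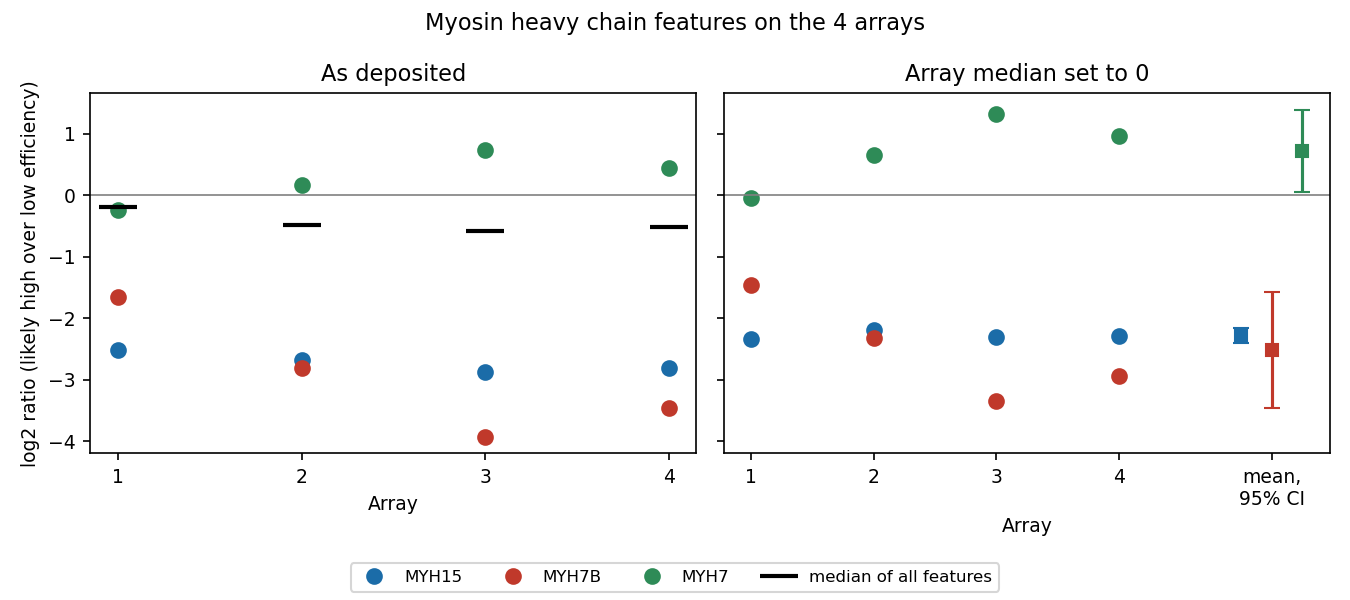
Log2 ratio of MYH15, MYH7B and MYH7 (y axis) on each of the 4 arrays (x axis), as deposited on the left with the median of all features as a black bar, and with the array median at 0 on the right, where squares and bars give the mean and limma's 95% interval. MYH15 lies between -2.34 and -2.20 on all arrays after centring, MYH7B spreads from -1.47 to -3.35, and MYH7 from -0.06 to 1.31.

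With the test run over all 31722 features in place of named genes, MYH15 (adjusted p = 0.00150) and MYH7B (adjusted p = 0.0476) passed and MYH7 (adjusted p = 0.189) did not. Of all features 3.97% passed, 1.19% lower and 2.77% higher. By mean ratio MYH7B was the 26th lowest and MYH15 the 52nd lowest feature. On single arrays MYH15 ranked between 42nd and 43rd lowest of 3494 genes. The rank of MYH7B ran from 111th lowest on array 1 to 9th lowest on array 3. MYH7 was among the 125 highest genes on arrays 2, 3 and 4, where its best place was 20th, and 2246th highest on array 1.

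**Figure D2:**
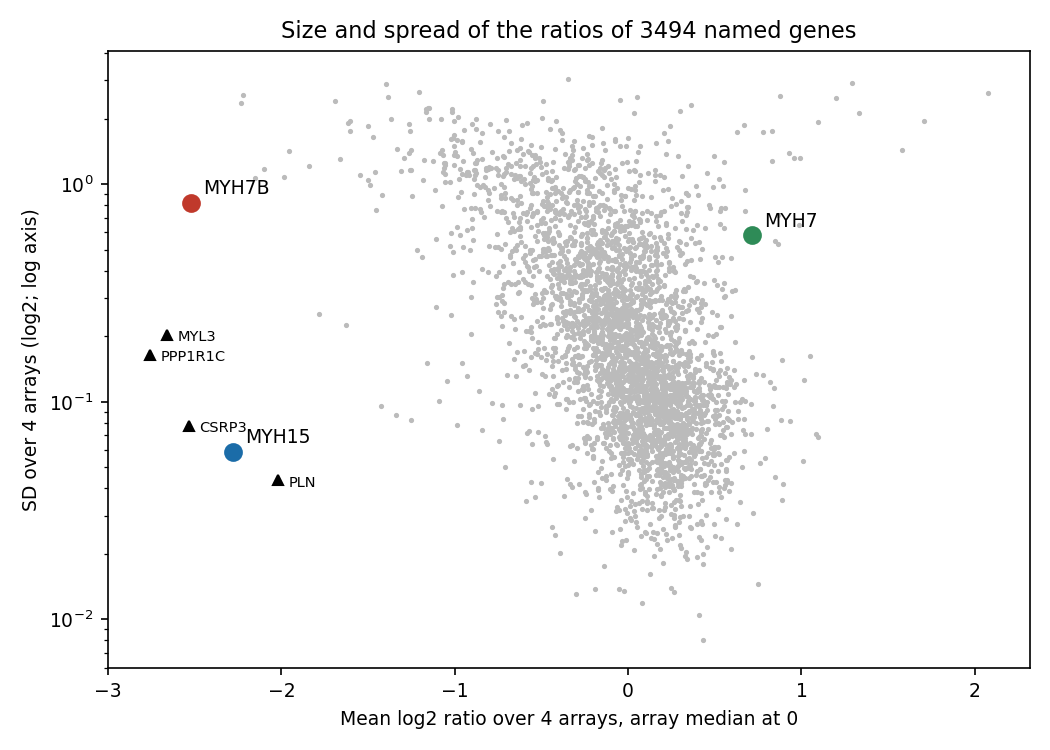
Mean log2 ratio with the array median at 0 (x axis) against the SD over the 4 arrays (y axis, log scale) for 3494 named genes in grey, with the 3 myosin heavy chains in colour and CSRP3, PLN, MYL3 and PPP1R1C as triangles. MYH15 sits at -2.28 with an SD of 0.06, while MYH7B, at a like mean of -2.52, has an SD of 0.82.

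The chains were then compared with each other within each array, a comparison that no centring can change. MYH15 minus MYH7 was -2.28, -2.85, -3.61 and -3.24 on arrays 1 to 4. The difference was negative on 4 of 4 arrays and averaged -2.995 ± 0.57 (95% interval -3.90 to -2.09), a 7.97-fold difference between their ratios. Unlike limma's, the intervals of the pair differences are plain t intervals without variance moderation, and they assume normal spread. MYH7B minus MYH7 was -1.41, -2.97, -4.67 and -3.90, again negative on 4 of 4 arrays, with a mean of -3.24 ± 1.40 (95% interval -5.47 to -1.01). For both pairs the exact sign-flip permutation test over 4 arrays gave p = 0.125 (two-sided; adjusted over 3 pairs 0.188), the smallest p that 4 arrays allow, so this test cannot pass 0.05.

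MYH15 and MYH7B were not told apart in the size of their difference. MYH15 minus MYH7B was -0.87 on array 1, 0.12 on array 2, 1.06 on array 3 and 0.66 on array 4. The sign differed between arrays, with MYH7B the lower gene on 3 of 4. The mean was 0.24 ± 0.83, with an interval from -1.08 to 1.57 and an exact p of 0.625 (two-sided sign-flip test; adjusted over 3 pairs 0.625). That interval leaves room for more than a 2-fold difference either way.

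**Figure D3:**
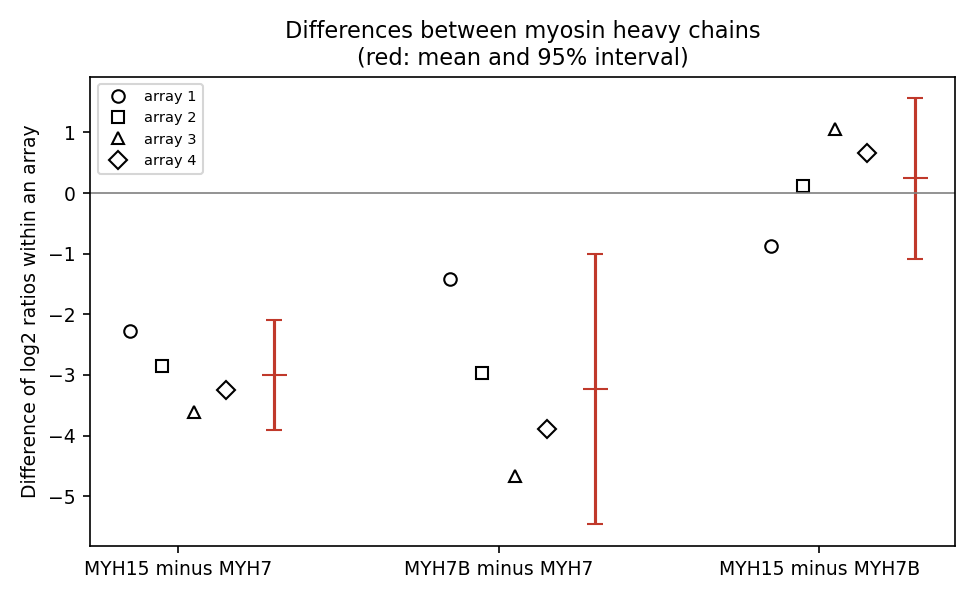
Difference between the log2 ratios of a pair of myosin heavy chains within an array (y axis) for the 3 pairs (x axis), with 1 symbol per array. The mean with its 95% t interval, without variance moderation, is in red. Both differences from MYH7 are below 0 on all 4 arrays, and MYH15 minus MYH7B runs from -0.87 to 1.06.

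The genes nearest to MYH15 over the 4 arrays, by root-mean-square difference of the centred log2 ratios, were CSRP3 (0.261), PLN (0.265), MYL3 (0.419) and PPP1R1C (0.496), where the median gene was 2.32 away. CSRP3, the muscle LIM protein, had a mean ratio of -2.53 ± 0.08. PLN, the inhibitor of the slow and cardiac calcium pump, had one of -2.02 ± 0.04. When array 2, 3 or 4 was left out, 4 genes in all passed the test each time, MYH15, CSRP3 and PLN among them, joined by PPP1R1C without arrays 2 and 4 and by MYL3 without array 3. These genes were singled out after their values were seen.

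The nearest genes to MYH7B were MYL3 (0.563), PPP1R1C (0.690), CSRP3 (0.726) and MYH15 (0.760), against a median of 2.65. PPP1R1C, an inhibitor subunit of protein phosphatase 1, had a mean ratio of -2.76 ± 0.16. None of these 4 shared the wide spread of MYH7B. The nearest genes to MYH7 were AP1S3 (0.370), ZFX (0.374), RUNX2 (0.410) and LOC419722 (0.424), against a median of 0.913. AP1S3 (0.71 ± 0.16), ZFX (0.53 ± 0.22) and the bone transcription factor RUNX2 (0.54 ± 0.22) passed the test, and LOC419722 (0.43 ± 0.24, adjusted p = 0.0585) did not, though it did with array weights (0.0441). As deposited AP1S3 (0.27, adjusted p = 0.0842), ZFX (0.09, 0.495) and RUNX2 (0.10, 0.494) did not pass. ZFX and RUNX2 also did not pass after centring on the least variable features (adjusted p = 0.0725 and 0.0662) or without variance moderation (0.0697 and 0.0682). With any array left out, RUNX2 did not pass (limma's adjusted p from 0.0634 to 0.126). AP1S3 (0.0427 to 0.0811) and ZFX (0.0486 to 0.123) passed only without array 1. These likeness values cover 4 arrays that all genes share, and are a description only.

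The measured slow and cardiac light chains differed among themselves. Of the essential light chains, MYL3, of ventricle and slow muscle, stood at -2.46, -2.53, -2.89 and -2.76 on arrays 1 to 4 (mean -2.66 ± 0.20, adjusted p = 0.00366). All 4 arrays of MYL3 lay below every array of MYH15. MYL4, the embryonic and atrial light chain, stood at -0.20, -0.82, -0.68 and -1.01 (-0.68 ± 0.35, adjusted p = 0.0432), low on every array but little on array 1. Its call was lost without variance moderation (adjusted p = 0.101), with values on at least 3 arrays (0.0557) and without array 2 (0.158), array 3 (0.154) or array 4 (0.123). The regulatory light chain MYL2, of ventricle and slow muscle, was at -0.18, -0.32, -0.72 and 0.12 (-0.27 ± 0.35, adjusted p = 0.267) and did not pass, but as deposited it was called lower (-0.71, adjusted p = 0.0418). The atrial chain MYH7 and the atrial light chain MYL4 thus had ratios of opposite sign on arrays 2 to 4.

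Myosin-binding protein C, which lies along the thick filament and tunes the motors, was lower in both slow and cardiac forms. The slow form MYBPC1 stood at -1.52, -1.88, -2.09 and -1.65 (-1.78 ± 0.25, adjusted p = 0.00725). The cardiac form MYBPC3 stood at -0.74, -0.73, -0.42 and -0.86 (-0.69 ± 0.19, adjusted p = 0.0139). Both were low on every array, and no array of MYBPC3 reached the ratios of MYBPC1. With an array left out, MYBPC1 passed only without array 1 (limma's adjusted p from 0.0427 to 0.0799). MYBPC3 did not pass without any of the arrays (0.0601 to 0.0901).

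In the wider list of slow and cardiac sarcomere genes, 18 of 29 were measured, of which 14 were lower, 0 higher and 4 did not pass. Over all named genes 6.1% were lower and 18.5% higher. TNNC1, CASQ2 and ANKRD1 had features at a deposited ratio of 1 and count as not measured. The median of the 18 was -0.94, with array medians from -1.08 to -0.93, beside a median of 0.01 over all genes. Leaving out the 3 heavy chains, 12 of 15 were lower and the median was -0.78. The list was drawn up with earlier results of these arrays known, so its count is not independent evidence. Of the genes not yet named, TNNI1, the slow troponin I (-1.43 ± 0.10), cardiac troponin T, TNNT2 (-0.59 ± 0.04), the calcium pump ATP2A2 (-0.75 ± 0.07), the thin filament proteins LMOD2 (-1.63 ± 0.22) and TMOD1 (-1.09 ± 0.10) and the LIM protein FHL2 (-0.78 ± 0.10) fell. MYH7, MYL2, TPM3 (-0.18 ± 0.07) and MYOZ1 (0.15 ± 0.11) were the 4 that did not pass. MYOZ1 is not a slow or cardiac form, but it was counted here as the list was drawn up. As deposited MYL2 and TPM3 (-0.62, adjusted p = 0.0244) were called lower, which made 16 lower, and TPM3 also was after centring on the least variable features (-0.34, adjusted p = 0.0223). With the array median at 0, MYH7 had the highest ratio of the 18. Of 3494 named genes, 26 were called at least 2-fold lower and 18 were measured members of this list. Of the 26, 9 (34.6%) were in the list, and these 9 include MYH15 and MYH7B themselves. Without array 2, 3 or 4 the lower genes of the list numbered 3, 4 and 3.

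**Figure D4:**
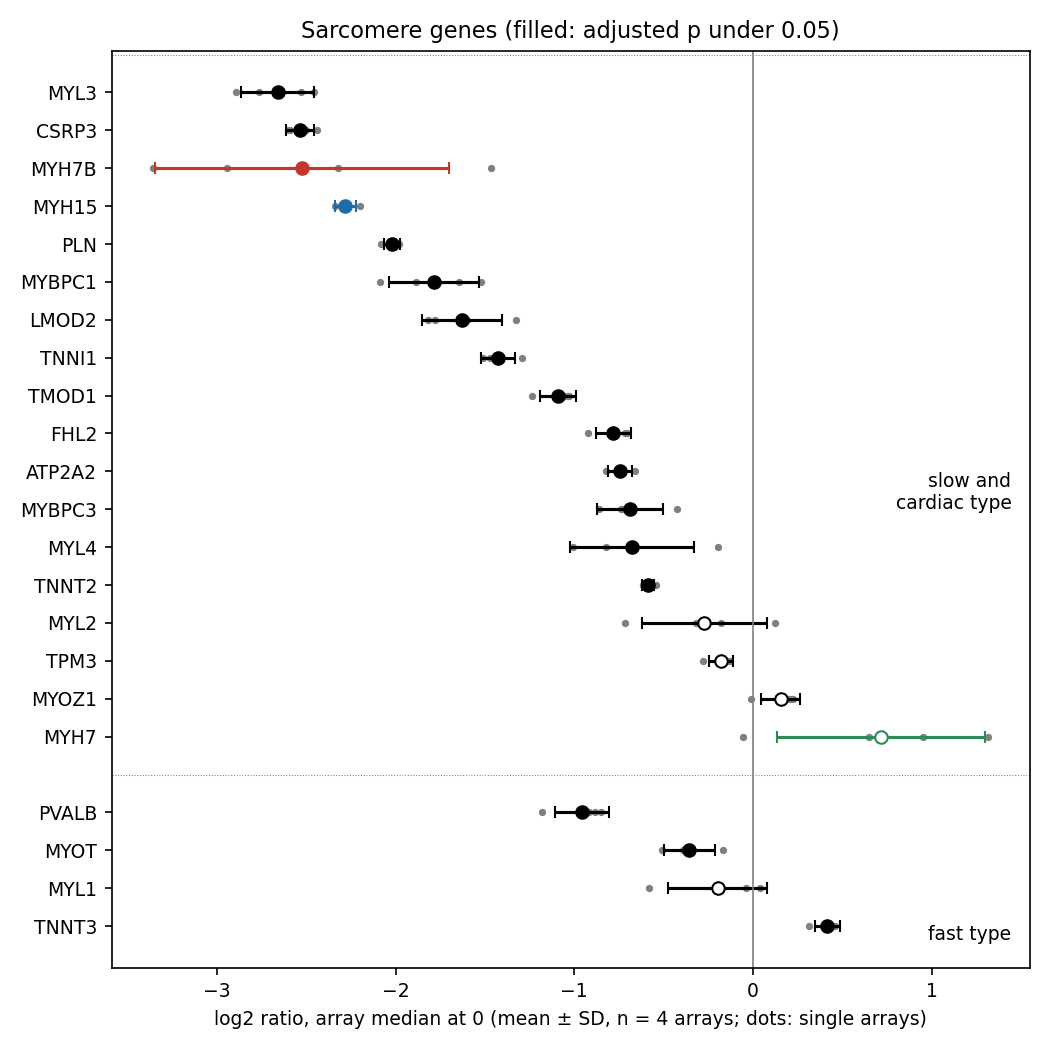
Log2 ratio with the array median at 0 (x axis), as mean ± SD over 4 arrays with single arrays as grey dots. The upper block holds each measured gene of the slow and cardiac sarcomere list, and the lower block those of the fast sarcomere list. Filled symbols passed limma's test at adjusted p under 0.05, and MYH15 (-2.28) and MYH7B (-2.52) sit near the low end while MYH7 (0.72) is the highest of its block.

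No fast myosin heavy chain was measured under its name, so the fast chains could not be set beside the slow ones. Of 29 listed fast sarcomere genes 4 were measured. TPM1 was at a deposited ratio of 1 and counts as not measured. Fast troponin T, TNNT3, was higher (0.41 ± 0.07, but -0.03 as deposited), while parvalbumin, PVALB, a calcium buffer of fast fibres (-0.96 ± 0.15), and the Z-disc protein MYOT (-0.36 ± 0.14) were lower. MYOT is not particular to fast fibres, but it was counted here as the list was drawn up. The fast light chain MYL1 stood at -0.20 ± 0.28 and did not pass, but was called lower as deposited (-0.64, adjusted p = 0.0353). MYOT did not pass without variance moderation (adjusted p = 0.0646). With any array left out, TNNT3 did not pass (limma's adjusted p from 0.0517 to 0.0880). PVALB (0.0427 to 0.0799) and MYOT (0.0492 to 0.141) passed only without array 1. The median of the 4 was -0.28. By comparison, 18.5% of all named genes were higher and 6.1% lower.

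In a list of other myosins, their light chains and related enzymes, 9 of 39 genes were measured, and 1 passed, where 24.6% of all named genes did. The unconventional myosin MYO15A, known from the hair cells of the inner ear, was higher (0.29 ± 0.06, adjusted p = 0.0202, but -0.15 as deposited, and adjusted p = 0.122 after centring on the least variable features). With any array left out, MYO15A did not pass (limma's adjusted p from 0.0648 to 0.113). The non-muscle heavy chain MYH10 stood at -0.16 ± 0.08, and the smooth muscle heavy chain MYH11 at 0.08 ± 0.07. The membrane-linked MYO1C was at -0.36 ± 0.26, the light chain MYL9 at -0.08 ± 0.19 and the ligase MYLIP at -0.09 ± 0.14. None of these last 5 passed, and the list median was -0.09. MYH10 was however called lower as deposited (-0.60, adjusted p = 0.0263) and after centring on the least variable features (-0.32, adjusted p = 0.0254). As deposited MYO1C (-0.80, adjusted p = 0.0307), MYL9 (-0.52, 0.0342) and MYLIP (-0.53, 0.0430) were called lower as well. MYH10 and MYH11 were the only other heavy chains measured under a name.

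Proteins that fold the myosin head or build the filament were measured for 9 of 24 listed genes, with 2 higher and 1 lower and a list median of 0.13. Over all named genes 18.5% were higher and 6.1% lower. The methyltransferase SMYD2 (0.43 ± 0.10, adjusted p = 0.0157) and the HSP90 cochaperone AHSA1 (0.29 ± 0.06, adjusted p = 0.0202) were higher. The chaperone HSP90AB1 was lower (-0.48 ± 0.13, adjusted p = 0.0165). The M-band protein MYOM2 (0.29 ± 0.15), the cochaperone PTGES3 (0.27 ± 0.18) and the muscle methyltransferase SMYD1 (0.13 ± 0.12) did not pass. The 5 of these 6 genes with a positive ratio were below 0 as deposited, with values from -0.31 for SMYD1 to -0.02 for SMYD2. AHSA1 did not pass after centring on the least variable features (adjusted p = 0.105), and MYOM2 did with array weights (adjusted p = 0.0313) and without array 1 (0.0499). With any array left out, SMYD2 (limma's adjusted p from 0.0517 to 0.0892) and AHSA1 (0.0610 to 0.109) did not pass. HSP90AB1 passed only without array 1 (0.0427 to 0.0946).

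Regulators known to favour or restrain slow fibre genes were measured for 21 of 52 listed genes, and 17 did not pass. Over all named genes 24.6% passed, 6.1% lower and 18.5% higher. PROX1, a transcription factor of slow fibres, stood at -0.64, -0.24, -0.50 and -0.47 on arrays 1 to 4 and was lower (-0.47 ± 0.17, adjusted p = 0.0239). The calcium-dependent kinase CAMK2A was lower too (-0.25 ± 0.07, adjusted p = 0.0322). The calcineurin subunits PPP3CA (0.25 ± 0.11, adjusted p = 0.0489) and PPP3R1 (0.25 ± 0.10, adjusted p = 0.0465) were higher with the array median at 0 and stood at -0.19 each as deposited. They did not pass after centring on the least variable features (adjusted p = 0.302 and 0.289) or without variance moderation (0.0723 and 0.0653), where PROX1 did not either (adjusted p = 0.0526). None of these called regulators passed when an array was left out, with adjusted p from 0.0701 (PROX1) to 0.175 (PPP3R1). EYA3 (0.17 ± 0.06) and TBX15 (-0.43 ± 0.41) did not pass, but TBX15 was called lower as deposited (-0.87, adjusted p = 0.0295). The list median was -0.01, against 0.01 over all genes.

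Markers of other tissues and cells are given for comparison with the fall of MYH15 and MYH7B. Beside their counts, 6.1% of all named genes were lower and 18.5% higher. These lists share genes with those above, as some heart markers were also counted as regulators and MYH11 as another myosin. Of 20 heart markers 5 were measured and 0 passed. The SD of these 5 was wide, from 0.39 to 1.45, and 4 of them had a mean ratio below 0. Their median was -0.42, and the medians on single arrays ran from -0.79 to 0.30. Of leukocyte markers 5 of 13 were lower and 0 higher. Their median was -0.25, and on single arrays it ran from -0.44 to -0.19. Red blood cell markers (1 of 5 higher), endothelial and smooth muscle markers (1 higher and 1 lower of 11), fibroblast and fat markers (4 higher and 1 lower of 12) and nerve and satellite cell markers (5 of 13 higher) had medians of -0.21, -0.05, -0.01 and 0.08. The 5 higher genes of the nerve and satellite cell list were myogenic transcription factors and acetylcholine receptor subunits. Most of these can be expressed by muscle fibres themselves, and none of the measured nerve genes of the list passed. The part of other tissues and cells in the ratios of the myosin chains was not tested.

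The mean ratios of the 3 chains kept their signs under the other centrings tried. As deposited the means were -2.72 for MYH15, -2.96 for MYH7B and 0.27 for MYH7, and with the least variable features at 0 they were -2.44, -2.68 and 0.56. In both cases MYH15 and MYH7B passed and MYH7 did not. The median of all genes moved to -0.43 and -0.15 in these settings, and every ratio is relative to the chosen zero.

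**Figure D5:**
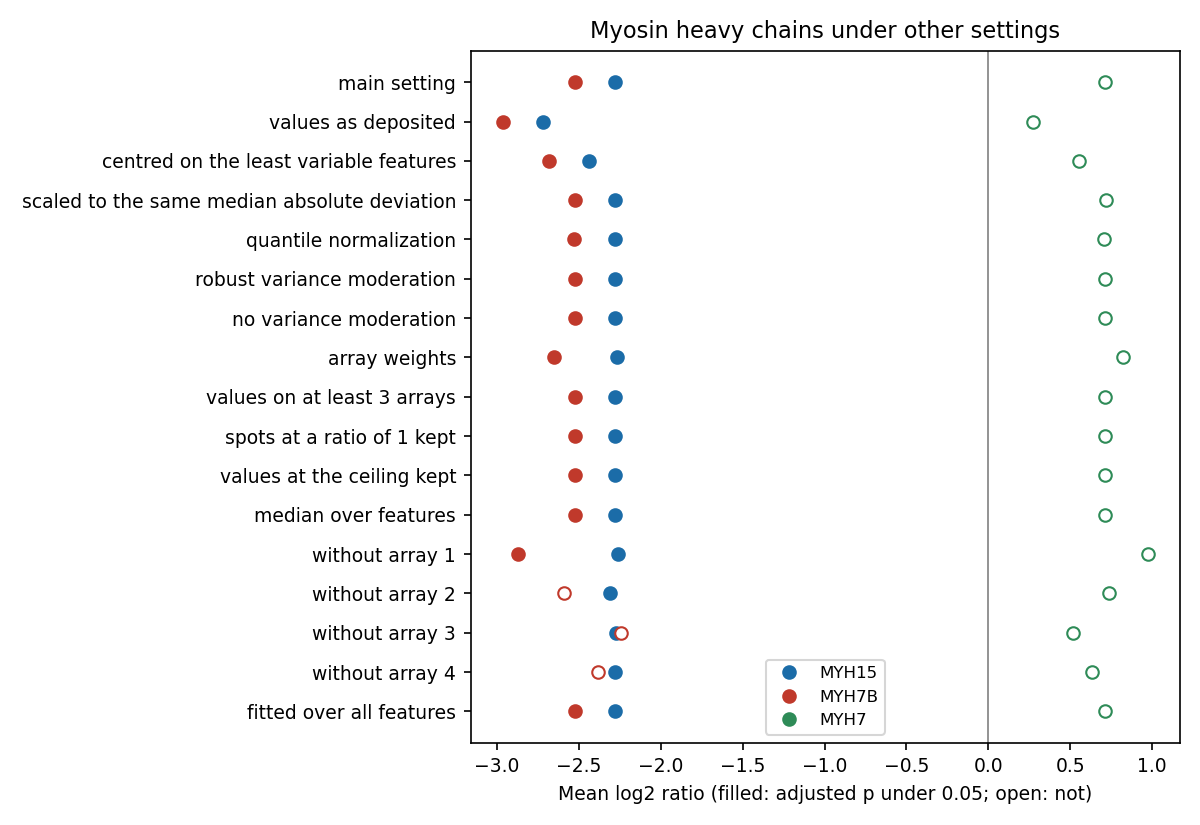
Mean log2 ratio (x axis) of MYH15, MYH7B and MYH7 under the main setting and 16 others (y axis), filled where adjusted p was under 0.05. MYH15 is filled in every row, MYH7 is open in every row, and MYH7B is open without array 2, 3 or 4.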

How the data were processed

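The authors deposited log2 ratios of the dyes for 45220 features on each of 4 two-colour arrays. That scale was inferred from the values themselves. Scanner, background correction and normalization are not stated in the sources at hand, and single-dye signals were not analysed here. Per the labels' protocols, 2 µg of Trizol-extracted RNA were used. Values at a ceiling of 16.61 (107 to 157 per array) and 160 features within 0.005 of 0 on at least 3 arrays, as spots saturated in both dyes would be, were treated as not measured. The platform table named 4391 features with 1 symbol, and 410 symbols were updated through RefSeq synonyms. Each array was centred on its median, and gene values are means over features. Limma 3.58.1 (R 4.3.3) fitted an intercept to all genes and to all features, with a two-sided test against 0 and a threshold of 0.05 after Benjamini-Hochberg adjustment. Their p-values rest on the spread between these 4 arrays, which may be partly technical. The fit was also run on simulated data with independent normal noise and known changes. That simulation held no dye effect and no difference between arrays, so it cannot speak to either. Pairs of members were compared by an exact sign-flip permutation test.

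Genes named are the 3 members, the slow and cardiac sarcomere genes that passed, its light chains and binding proteins, up to 6 genes of smallest p in each of 4 other lists, and the 4 genes nearest to each member. TPM3 and MYOZ1 (not passed) and TNNC1, CASQ2, ANKRD1 and TPM1 (not measured) were named besides, to complete counts. The members and lists were chosen with earlier results of these data known. Alternatives were other centrings, scalings and filters, other variance models, the median over features, and leaving out each array.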

Additional observations from a re-analysis of the deposited data

Results flagged for a closer look

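The 3 myosin heavy chains had no array that stood apart by Dixon's criterion for 4 values. Of 45 genes examined, which are those named with a value, 5 had one, and chance alone flags about 1 in 20 groups. TMOD1 was lowest on array 1 (-1.24), with the other arrays between -1.06 and -1.03. MYOZ1 was lowest on array 1 (-0.012), with the others between 0.19 and 0.23. TNNT3 was lowest on array 3 (0.31), with the others between 0.44 and 0.46. EYA3 was highest on array 1 (0.26), with the others between 0.13 and 0.15. TBX15 was highest on array 4 (0.18), with the others between -0.68 and -0.60, so its sign differed on that array.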

How the results depend on the processing

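The ratio of each array already pairs its high-efficiency and low-efficiency channels. The arrays form a single group, so no further pairing was fitted. MYH15 kept its direction and its call under the 12 alternatives that keep all arrays (-2.72 to -2.27) and without each array (-2.31 to -2.26, adjusted p 0.0217 to 0.0372). MYH7B kept both under the same 12 (-2.96 to -2.52, adjusted p 0.0108 to 0.0476) but without single arrays ran from -2.87 to -2.24, with adjusted p of 0.0427 to 0.0909 in the gene fit and 0.130 to 0.242 in the feature fit. MYH7 stayed above 0 and uncalled under these alternatives (0.27 to 0.82) and without each array (0.52 to 0.97). Without single arrays MYH15 minus MYH7 ran from -3.23 to -2.79, MYH7B minus MYH7 from -3.85 to -2.76, and MYH15 minus MYH7B from -0.0297 to 0.612, turning negative without array 3 (-0.0297). Genes called numbered 861 (648 higher, 213 lower). Without single arrays they ran from 4 to 325, higher ones from 0 to 240, lower ones from 4 to 85, slow and cardiac genes lower from 3 to 13 and fast genes higher stood at 0, where fewer arrays are fitted. At an unadjusted p under 0.05 between 1032 and 1250 genes passed there. As deposited 9 genes were higher and 1142 lower, with the least variable features at 0 they were 241 and 414, and without variance moderation 131 were lower. Fast genes higher numbered 1, but 0 as deposited and 2 with spots at a ratio of 1 kept, a setting that brings in TPM1. A spot at a deposited ratio of 1 lies above 0 after centring, since all array medians were negative. As deposited, AHSA1 (-0.15), EYA3 (-0.27), LOC419722 (-0.0153), MYH11 (-0.36), MYO15A (-0.15), MYOM2 (-0.15), MYOZ1 (-0.288), PPP3CA (-0.19), PPP3R1 (-0.19), PTGES3 (-0.17), SMYD1 (-0.31), SMYD2 (-0.0155) and TNNT3 (-0.0273) turned negative. So did MYH11 (-0.079), MYOZ1 (-0.0065) and SMYD1 (-0.0335) with the least variable features at 0, and MYL9, which ran from -0.138 to 0.0095 without single arrays, turned positive without array 4. The lower values as deposited follow from the array medians, and the cause of the other changes was not tested. Signal over background is unknown, so dim features could not be set apart.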

Other observations

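The array order of the 3 chains differed. From lowest to highest centred ratio, MYH7 ran through arrays 1, 2, 4 and 3, and MYH7B through the reverse order, arrays 3, 4, 2 and 1. Among 31480 features with no ties, 3.84% had the order of MYH7 and 4.70% that of MYH7B, of 24 possible orders. The deposited array medians had the order of MYH7B, from -0.58 on array 3 to -0.19 on array 1.

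Deposited values were also read as ratios of whole numbers that match to 3 decimals. For MYH7 the larger number of the simplest matching ratio was 13, 28, 5 and 42 on arrays 1 to 4 (median 20.5), and 11.4% of 6041 features with a like deposited ratio had a smaller median. For MYH7B it was 107, 7, 61 and 11 (median 36.0), with 58.0% of 88 like features smaller. For MYH15 it was 178, 122, 477 and 377 (median 277.5), above all 175 like features, for which the median was 33.5. Such a number also depends on where a value lies, since one just beside a simple ratio is matched only by large numbers. Whether these numbers reflect the brightness of the spots was not tested.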
